A study of Mus musculus with 48 samples.

Results

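Genes that handle glycogen and glucose in the hepatocyte were followed in 3 mouse tissues: liver, brown fat (BAT) and the white fat beside the epididymis (eWAT). The 9 genes were chosen by name as members of this pathway, with earlier results of these data known. Each matched 1 of the 56748 gene identifiers counted, of which 52073 had a symbol. They comprise 3 glycogen-targeting subunits of protein phosphatase 1 (Ppp1r3b, Ppp1r3c and Ppp1r3g), 2 glycogen synthases (Gys1 and Gys2), the liver glycogen phosphorylase Pygl, the gluconeogenic enzymes Pck1 and Fbp1, and the glucose transporter Slc2a2, also known as GLUT2.

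Glycogen is the branched store of glucose that liver builds after a meal and breaks down between meals. Glycogen synthase adds glucose to the chain and is switched on when protein phosphatase 1 removes phosphate from it, and the targeting subunits bring that phosphatase to the glycogen particle. Glycogen phosphorylase releases glucose from the chain, phosphoenolpyruvate carboxykinase (Pck1) and fructose bisphosphatase (Fbp1) make new glucose from smaller precursors, and Slc2a2 carries glucose across the hepatocyte membrane. In adipocytes Pck1 is known for supplying glycerol for triglyceride synthesis, and brown fat is known to build a glycogen store of its own.

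RNA was sequenced from male mice with a hepatocyte deletion of angiotensinogen (hepAGT-/-, here KO) and from littermates without it (hepAGT+/+, here WT). Every mouse ate a Western diet with 21% milk fat and 0.2% cholesterol over 12 weeks, so no group ate another diet. Mice were kept at 20 to 22 °C, called RT here, or at 30 °C, called TN for thermoneutral, a warmth at which a mouse needs little extra heat. The 48 libraries formed 12 groups of 4, 1 for each combination of tissue, genotype and housing. The driver of the deletion, the age of the mice and their state of feeding at collection are not given in the sources used here. Replicates are biological according to the labels.

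Library totals ran from 23711728 to 43687848 counts. Levels are given as CPM, counts relative to the library total after TMM scaling within each tissue. Changes are log2 fold changes with their standard error (SE). A gene was called when its adjusted p was under 0.05. Agt, the deleted gene, fell in KO liver at RT (log2 difference -1.14, SE 0.18, adjusted p 0.0096) and at TN (-1.29, SE 0.18, adjusted p 0.00113), with no overlap between genotypes at either temperature. The summed level of 8 hepatocyte markers was 57224 to 97640 CPM in liver, 7.54 to 2719 CPM in BAT and 28.6 to 4904 CPM in eWAT. That of 6 adipocyte markers was 8546 to 14559 CPM in BAT, 23158 to 38441 CPM in eWAT and 15.6 to 267 CPM in liver, where Adipoq was at 0 in 3 of the 4 groups. Some libraries stood apart: BAT KO TN replicate 2 had the highest sums of hepatocyte (2719 CPM) and skeletal muscle markers (7357 CPM) among BAT libraries, eWAT KO RT replicate 16 had the highest hepatocyte sum of eWAT, and eWAT WT RT replicate 18 had 882 CPM of epididymis markers. BAT WT TN replicates 6 and 24 and BAT KO RT replicate 14 were also high in skeletal muscle markers (5411, 5386 and 3720 CPM). In liver, KO RT replicate 19 had 14.7 CPM of Ucp1, the brown fat uncoupling protein, which had 0 counts in the other 15 liver libraries.

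In the GRCm38 build, Ppp1r3b (ENSMUSG00000046794) lies on chromosome 8 from 35375739 to 35388139, Ppp1r3c (ENSMUSG00000067279) on chromosome 19 from 36731731 to 36736653, and Ppp1r3g (ENSMUSG00000050423) on chromosome 13 from 35958839 to 35970388. Gys1 (ENSMUSG00000003865) lies on chromosome 7 from 45434844 to 45456619, Gys2 (ENSMUSG00000030244) on chromosome 6 from 142422613 to 142473109, and Pygl (ENSMUSG00000021069) on chromosome 12 from 70190811 to 70231488. Pck1 (ENSMUSG00000027513) lies on chromosome 2 from 173153048 to 173159273, Fbp1 (ENSMUSG00000069805) on chromosome 13 from 62864753 to 62888282, and Slc2a2 (ENSMUSG00000027690) on chromosome 3 from 28697903 to 28731359. Of the 4789 exon bases of Gys1, 310 (6.47%) also lie in exons of Ruvbl2 on the opposite strand. The strand setting of the counting is not given in the sources used here, so reads of the pair cannot be told apart there. The exons of the other 8 genes overlapped no other gene's exons.

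Promoter sequences from RefSeq (GRCm38.p6), running from 250 bases before the start site to 50 after it, were at hand for 7 of the 9 genes. Ppp1r3b and Gys2 had no entry. Those of Pygl and Pck1 are shown because both genes were abundant in brown fat, where Pygl fell at TN and Pck1 was not called. Capitals mark the core of the cAMP response element, TGACG or its reverse complement CGTCA, the letters bound by the factor that carries the glucagon and adrenergic signal. Pygl is on the minus strand at chr12:70227634-70227933 and Pck1 on the plus strand at chr2:173152823-173153122, both written 5′ to 3′. These are 1 annotated start each, and GENCODE lists 6 transcript starts for Pygl and 3 for Pck1.
Pygl: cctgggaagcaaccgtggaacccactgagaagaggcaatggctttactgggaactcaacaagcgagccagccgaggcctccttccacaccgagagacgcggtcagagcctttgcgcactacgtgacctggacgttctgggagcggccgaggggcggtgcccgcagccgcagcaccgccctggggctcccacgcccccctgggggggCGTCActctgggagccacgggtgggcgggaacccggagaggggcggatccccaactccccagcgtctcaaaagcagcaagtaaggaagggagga
Pck1: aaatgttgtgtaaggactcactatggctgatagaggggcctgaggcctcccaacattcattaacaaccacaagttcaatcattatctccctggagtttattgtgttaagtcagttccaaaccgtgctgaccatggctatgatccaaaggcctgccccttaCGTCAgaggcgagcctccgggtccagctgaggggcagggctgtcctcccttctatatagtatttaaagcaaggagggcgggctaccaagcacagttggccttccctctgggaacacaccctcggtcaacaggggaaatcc
The core stood 44 bases before the start in Pygl and 90 bases before it in Pck1, and Ppp1r3g also held 1 core, at 40 bases before its start. On both strands, 20.8% of all 32851 promoters of this length held at least 1 core. The whole element TGACGTCA, which contains the core, was in none of the 7 promoters and in 1.79% of all. The letters CACGTG, an E-box, were in the promoter of Ppp1r3c, 104 bases before its start, and in 7.15% of all promoters. A match is a description of the letters, not a bound site.

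The 9 genes divided by tissue. Per kilobase of exon and over all 16 libraries of a tissue, liver had most Pck1 (545 ± 140 CPM per kb, SD, n = 16) and Fbp1 (493 ± 71.6), whose ranges overlapped. Then came Gys2 (80.0 ± 16.9), Pygl (79.8 ± 13.0), Slc2a2 (64.1 ± 10.6) and Ppp1r3b (49.0 ± 22.3), each overlapping the next. Ppp1r3c (16.8 ± 9.70), Ppp1r3g (3.64 ± 2.92) and Gys1 (0.668 ± 0.188) were lowest. These SDs include the differences between genotypes and housing.

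In BAT the order per kilobase was Pck1 (750 ± 176 CPM per kb, n = 16), Pygl (88.5 ± 65.6), Ppp1r3b (46.4 ± 36.4), Gys1 (35.1 ± 6.99), Ppp1r3c (31.4 ± 17.6), Gys2 (21.0 ± 17.4), Fbp1 (2.6 ± 3.23), Slc2a2 (0.321 ± 0.361) and Ppp1r3g (0.153 ± 0.124). Every neighbouring pair overlapped except Pck1 and Pygl. In eWAT it was Pck1 (453 ± 205), Pygl (24.5 ± 5.05), Gys1 (22.7 ± 5.44), Ppp1r3c (12.0 ± 3.71), Fbp1 (6.71 ± 7.36), Gys2 (5.10 ± 3.14), Ppp1r3b (4.57 ± 2.06), Slc2a2 (1.10 ± 1.17) and Ppp1r3g (0.0437 ± 0.0906), and again only Pck1 and Pygl did not overlap as neighbours. Pck1 thus had the highest mean over 16 libraries in each of the 3 tissues. In WT liver at TN, however, the mean of Fbp1 was higher (558 against 544 CPM per kb).

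**Figure D1:**
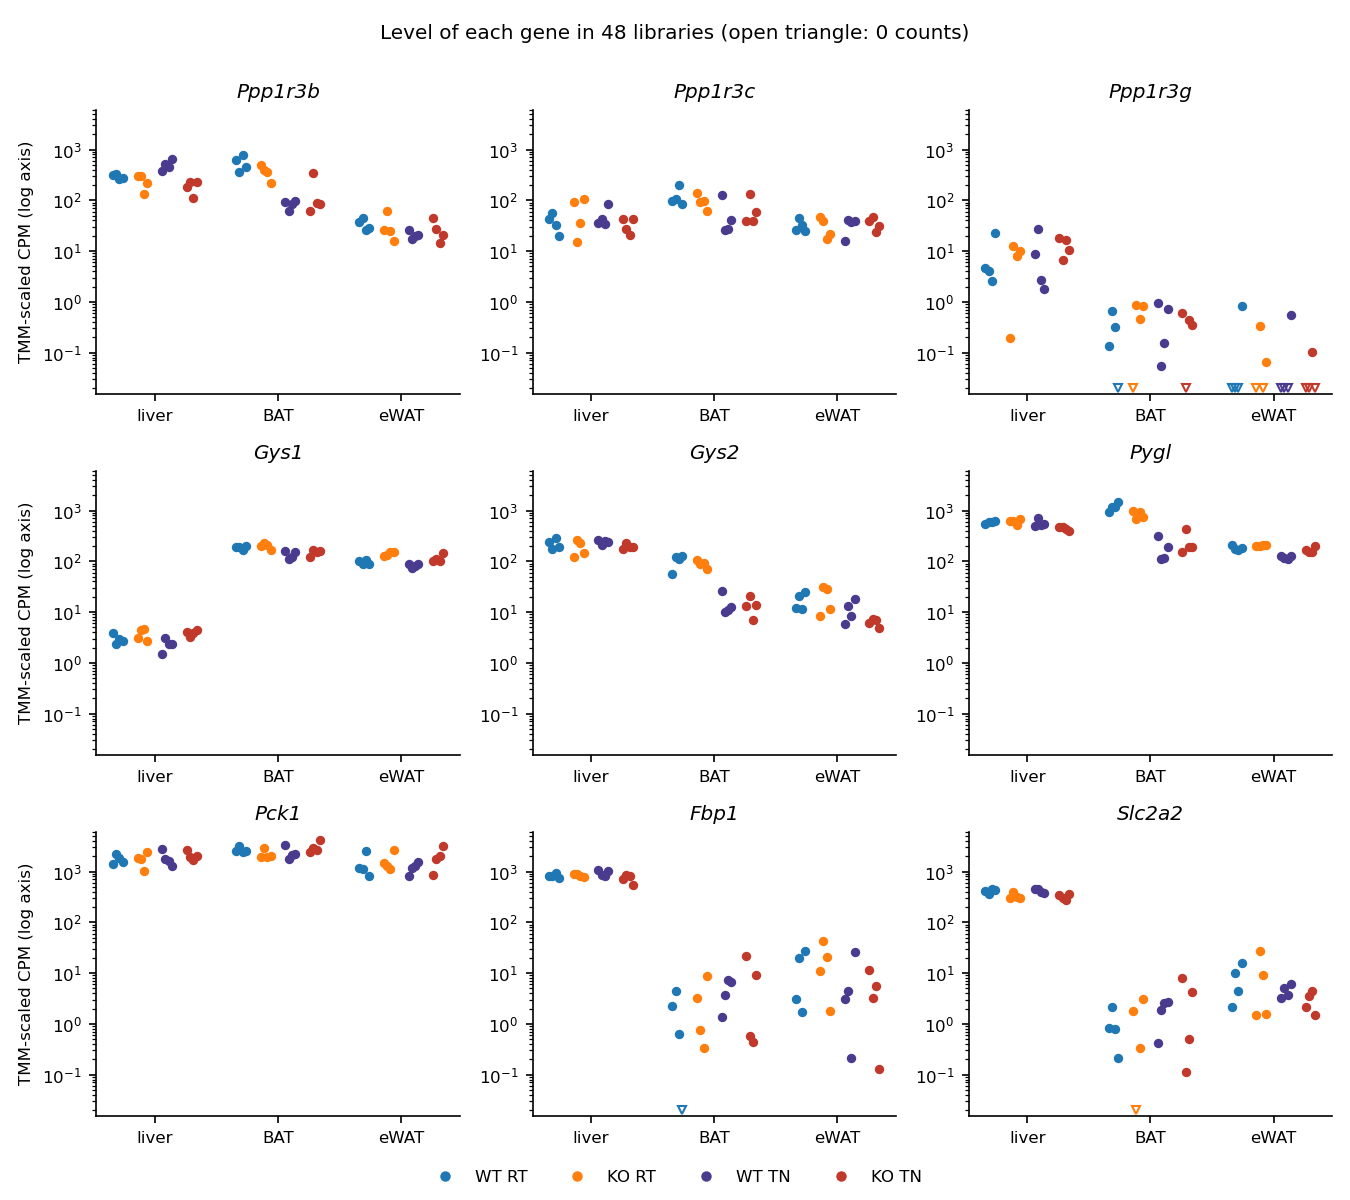
Level of each of the 9 genes in TMM-scaled CPM on a log axis, 1 point per library, grouped by tissue and coloured by genotype and housing; an open triangle marks a library with 0 counts. Fbp1 and Slc2a2 were highest in liver and Gys1 lowest there (1.46 to 4.62 CPM), and Gys2 in BAT was at 54.9 to 126 CPM at RT and 6.92 to 25.8 CPM at TN.

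Tests across all 48 libraries, with the 4 groups of a tissue weighted equally, called 8 of the 9 genes between liver and BAT, where 68.6% of all 21910 genes tested were called. All 9 were called between liver and eWAT (73.8% of all genes) and 8 between BAT and eWAT (60.3%), so a call between tissues was the common case. Slc2a2 was higher in liver than in BAT by 7.88 on the log2 scale (SE 0.54, adjusted p 5.59e-16) and higher than in eWAT by 6.55 (SE 0.50). Fbp1 was higher in liver by 7.86 (SE 0.73) against BAT and by 6.89 (SE 0.70) against eWAT. Ppp1r3g was higher in liver by 4.68 (SE 0.66) against BAT and by 7.10 (SE 0.76) against eWAT, a value set by very low counts and 8.45 without eWAT WT RT replicate 18. Gys2 was higher in liver by 2.63 (SE 0.19) and 4.62 (SE 0.21) against BAT and eWAT.

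Gys1, the synthase of muscle and most other tissues, went the other way. It was lower in liver than in BAT (log2 difference -5.61, SE 0.10, adjusted p 5.94e-37) and lower than in eWAT (-4.55, SE 0.10, adjusted p 6.15e-35). Ppp1r3b was lowest in eWAT, with liver higher by 3.88 (SE 0.22) and BAT higher by 3.41 (SE 0.22) on the log2 scale. Pygl was higher in liver than in eWAT by 2.25 (SE 0.12) and than in BAT by 0.38 (SE 0.11) on average over the 4 groups. The order of the means of liver and BAT turned with housing. At RT the mean of Pygl was 1178 CPM in WT BAT and 842 CPM in KO BAT against 593 and 604 CPM in liver. At TN it was 181 and 239 CPM in BAT against 565 and 438 CPM in liver. The CPM of each tissue were scaled apart, and liver against BAT was not tested at a single housing. The differences in Pck1 were smaller, at -0.34 (SE 0.16, adjusted p 0.0593, not called) for liver minus BAT and 0.82 (SE 0.16, adjusted p 1.89e-05) for liver minus eWAT.

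The order of the Ppp1r3b means also turned with housing, again without a test at a single housing. At RT the mean of Ppp1r3b was 555 CPM in WT BAT and 372 CPM in KO BAT against 292 and 241 CPM in liver. At TN it was 83.3 and 144 CPM in BAT against 497 and 188 CPM in liver. In KO, liver and BAT overlapped at RT (132 to 307 and 221 to 503 CPM) and at TN (112 to 230 and 60.5 to 344 CPM). The average difference between liver and BAT, 0.47 (SE 0.20, adjusted p 0.0353), was lost without any of 11 single libraries, with values of 0.41 to 0.45 and adjusted p from 0.0543 to 0.0639. These were BAT KO RT replicate 9, liver KO RT replicates 10 and 16, BAT WT RT replicates 15 and 18, BAT KO TN replicates 2 and 4, liver KO TN replicates 22 and 5, BAT WT TN replicate 6 and liver WT TN replicate 7. Ppp1r3c was lower in liver than in BAT (log2 difference -0.76, SE 0.25, adjusted p 0.00745) and higher than in eWAT (0.97, SE 0.25, adjusted p 0.000831). The call against BAT was lost when the replicate number was fitted as a block. Pck1 was called between liver and BAT without liver KO RT replicate 9, WT RT replicate 12, KO TN replicate 2 or WT TN replicate 1, or without BAT WT TN replicate 6, with adjusted p from 0.0248 to 0.0499.

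Among the targeting subunits, Ppp1r3b, the form known from liver, had in liver 265, 271, 308 and 322 CPM in WT at RT and 132, 220, 306 and 307 CPM in KO at RT. At TN it had 377, 453, 518 and 638 CPM in WT and 112, 184, 228 and 230 CPM in KO. All 4 WT TN libraries lay above every other liver library, and at TN the genotypes did not overlap. Ppp1r3b fell in KO at TN (497 ± 111 to 188 ± 55.3 CPM, n = 4, log2 change -1.40, SE 0.26, adjusted p 0.00982), 2.64-fold lower than in WT. It was the only one of the 9 genes called in that comparison, in which 3.18% of 17594 genes were called and 1.85% were lower in KO. The call held in 11 of 11 alternatives, with log2 changes from -1.51 to -1.22.

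At RT the genotype difference of Ppp1r3b in liver was -0.27 (SE 0.25, adjusted p 0.791), and none of the 9 genes was called there, where 0.0853% of all genes were. The difference between the genotype effects at TN and RT was -1.13 (SE 0.36, unadjusted p 0.00598, adjusted p 0.5), so the effects were not shown to differ with adjustment over all genes. With housing, the log2 change was 0.77 in WT (SE 0.25, adjusted p 0.428, groups not overlapping) and -0.36 in KO (SE 0.25, adjusted p 0.684). The WT comparison shares the WT TN libraries with the genotype comparison. The background of calls in liver was 0.0227% of genes for housing in WT and 0.114% in KO, and none of the 9 was among them. For the interaction 0 of 17594 genes were called by edgeR (1290 at an unadjusted p under 0.05).

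In KO liver at TN the summed level of 5 macrophage markers was 132 to 335 CPM, against 104 to 128 CPM in WT at TN. The groups did not overlap, and the sum moved against Ppp1r3b. The sums of 3 other marker lists did not overlap either: 6.23 to 10.5 CPM in KO and 3.30 to 5.81 CPM in WT for lymph node and B cell markers, 1.41 to 2.40 and 0.158 to 0.342 CPM for skeletal muscle markers, and 33.1 to 63.6 and 86.2 to 101 CPM for brown adipocyte markers, with Ucp1 at 0 in both groups. Elovl3 alone was at 29.9 to 45.6 CPM in KO and 73.6 to 86.0 CPM in WT after TMM scaling. Most of the brown adipocyte sum in these livers was thus 1 gene, so it is not a measure of brown adipocytes there. The part of the marker sums above in the result was not tested. In whole tissue, fewer cells of a type and less RNA per cell cannot be told apart. The hepatocyte marker sum was 79387 to 97640 CPM in KO and 72314 to 95138 CPM in WT at TN, overlapping.

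**Figure D2:**
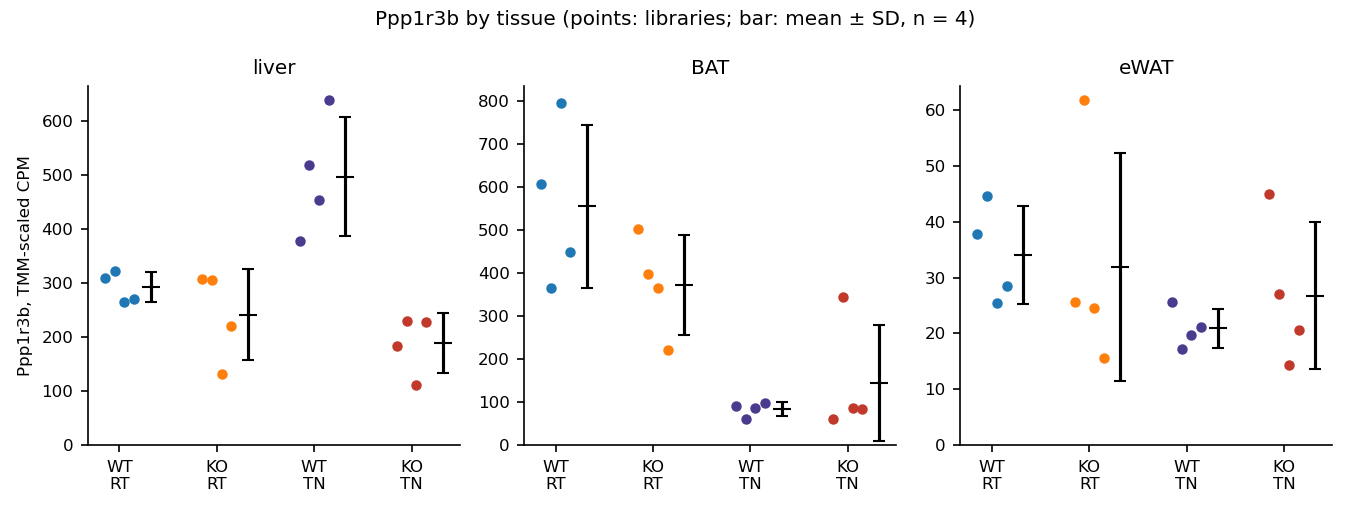
Ppp1r3b in TMM-scaled CPM by genotype and housing, in 1 panel per tissue with its own axis from 0; points are libraries and bars the mean ± SD (n = 4). In liver the KO TN libraries (112 to 230 CPM) sit below the WT TN libraries (377 to 638 CPM), while in BAT both genotypes are lower at TN, apart from KO replicate 3 at 344 CPM.

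In BAT, Ppp1r3b had 366, 449, 608 and 796 CPM in WT at RT and 60.3, 85.1, 90.9 and 97.1 CPM in WT at TN. The housing groups did not overlap, and Ppp1r3b fell at TN (log2 difference -2.73, SE 0.50, adjusted p 0.001), 6.66-fold lower. In KO it had 221, 366, 397 and 503 CPM at RT and 60.5, 83.5, 86.6 and 344 CPM at TN. One KO TN library, replicate 3, lay inside the RT range, and the log2 change of -1.37 (SE 0.48, adjusted p 0.0708) was not called. Without that library it was -2.25 (adjusted p 0.000111). The KO response minus the WT response was 1.36 (SE 0.67, adjusted p 0.504) and 0.47 without replicate 3, so the genotypes were not shown to differ; of 18032 genes, edgeR called 0 for this interaction (1832 at an unadjusted p under 0.05).

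The housing responses of Ppp1r3b in WT liver (0.77) and WT BAT (-2.73) were compared directly. The housing effect in BAT minus that in liver was -3.52 (SE 0.58, adjusted p 5.45e-05), and BAT minus eWAT was -2.02 (SE 0.57, adjusted p 0.0139). Whether the genotype effect at TN differed between tissues was not shown for Ppp1r3b. Liver minus BAT was -2.22 (SE 0.57, adjusted p 0.0632), and -2.47 with adjusted p 0.0227 without BAT KO TN replicate 2. Without BAT KO TN replicate 3 it was -1.32 (adjusted p 0.295). Liver minus eWAT was -1.79 (SE 0.57, adjusted p 0.0961). DESeq2, another count model, gave adjusted p of 0.00754 and 0.0286 for these. None of the 9 genes was called by edgeR in either comparison, where 0.434% and 1.62% of genes were, nor at RT (0.393% and 0.278%).

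In eWAT Ppp1r3b stayed between 14.4 and 61.8 CPM in all 16 libraries, and every pair of groups compared overlapped. Its 4 log2 changes there were -0.10 (KO minus WT at RT), 0.36 (at TN), -0.71 (TN minus RT in WT) and -0.25 (in KO), each with an SE of 0.40, and none was called.

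Ppp1r3c, a targeting subunit of many tissues including fat, was not called in any within-tissue comparison. In BAT it had 83.7, 96.2, 105 and 196 CPM in WT at RT and 26.1, 26.8, 40.8 and 127 CPM in WT at TN, replicate 24 being the high one. The log2 change was -1.13 (SE 0.56, adjusted p 0.142), and without replicate 24 it was -1.94 (adjusted p 0.00729). In KO it was -0.53 (SE 0.55, adjusted p 0.609). In liver Ppp1r3c ran from 14.8 to 106 CPM, with KO RT spanning that whole range. Its genotype differences in liver were 0.73 at RT and -0.57 at TN (SE 0.55 each, adjusted p 0.73 and 0.678). In eWAT it lay between 15.8 and 46.2 CPM with log2 changes from -0.05 to 0.20.

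Ppp1r3g, a subunit known to respond to feeding in liver, varied widely within groups. Its liver values were 2.54, 4.02, 4.54 and 22.9 CPM in WT at RT and 0.194, 7.89, 10.1 and 12.7 CPM in KO at RT. At TN they were 1.77, 2.64, 8.76 and 27.0 CPM in WT and 6.59, 10.5, 16.4 and 18.3 CPM in KO. Every pair of groups compared overlapped. The genotype difference at RT was -0.13 on the log2 scale with a 95% interval from -2.19 to 1.93, so these libraries bound it only loosely. The lowest value, 0.194 CPM (6 counts), belonged to KO RT replicate 10. In BAT the level was at most 0.960 CPM, and in eWAT 11 of 16 libraries had 0 counts, where a count of 0 allows up to 3 counts. Ppp1r3g did not pass the filter on low counts in eWAT and was tested in the other tissues.

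The 2 synthases divided liver from fat. In liver Gys1 was at 1.46 to 4.62 CPM and Gys2, the liver form, at 123 to 285 CPM. Per kilobase of exon, Gys2 made up 99.2% ± 0.131 of both synthases in WT at RT (SD, n = 4), 98.9% ± 0.191 in KO at RT, 99.5% ± 0.196 in WT at TN and 98.9% ± 0.238 in KO at TN. At RT the shares in BAT were 49.0% ± 10.0 in WT and 44.8% ± 3.38 in KO, and at TN they were 15.9% ± 4.55 and 13.9% ± 4.70. The RT and TN libraries of BAT did not overlap in this share. In eWAT the group means ran from 9.18% to 24.2%. These shares are given as a description, with no test.

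**Figure D3:**
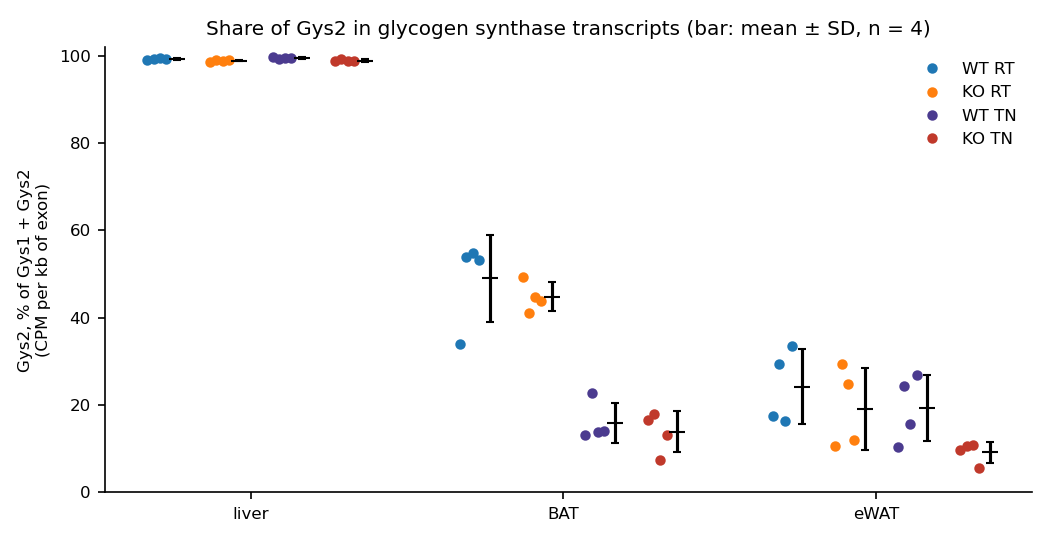
Share of Gys2 in the sum of Gys1 and Gys2, each as CPM per kilobase of exon, by tissue, genotype and housing; points are libraries and bars the mean ± SD (n = 4). Liver sits near 99%, BAT at RT between 34.0% and 54.9%, and BAT at TN between 7.51% and 22.7%.

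Gys2 itself had 54.9, 112, 123 and 126 CPM in WT BAT at RT and 10.0, 11.2, 12.5 and 25.8 CPM at TN. In KO BAT it had 71.3, 89.8, 94.5 and 107 CPM at RT and 6.92, 13.2, 13.5 and 20.5 CPM at TN. Neither genotype overlapped between housings, and Gys2 fell at TN in WT (log2 difference -2.81, SE 0.37, adjusted p 9.4e-05) and in KO (-2.74, SE 0.37, adjusted p 0.000247), by 6.99-fold and 6.70-fold. The difference between these changes was 0.06 (95% interval -0.91 to 1.03). The housing effect in WT BAT minus that in WT liver was -2.95 (SE 0.52, adjusted p 0.00011), and minus that in WT eWAT it was -2.20 (SE 0.52, adjusted p 0.00311). In eWAT of KO, Gys2 had 8.17, 11.5, 28.2 and 31.0 CPM at RT and 4.74, 6.12, 6.95 and 7.21 CPM at TN, without overlap. The log2 change of -1.66 (SE 0.44, adjusted p 0.0687) was not called. The RT values of 28.2 and 31.0 CPM came from replicates 19 and 16, whose hepatocyte marker sums were 2116 and 4904 CPM. Over the 16 eWAT libraries, Spearman's rho of Gys2 was 0.64 with the hepatocyte sum and 0.76 with the brown adipocyte sum. The part of these sums in this change and in the eWAT share of Gys2 was not tested. In liver its 4 log2 changes were -0.22, -0.29, 0.13 and 0.05 (SE 0.20 each), and the adjusted p values were 0.483 or more.

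Gys1 moved less in BAT. It had 166, 190, 192 and 199 CPM in WT at RT and 112, 124, 149 and 158 CPM in WT at TN, without overlap, and fell (log2 difference -0.46, SE 0.15, adjusted p 0.0282). That call was lost without WT RT replicate 15 or 18 or WT TN replicate 6, 7 or 1, with log2 changes from -0.49 to -0.35 and adjusted p from 0.055 to 0.14, and with no filter on low counts (-0.44, adjusted p 0.0698). In KO it had 164 to 231 CPM at RT and 119 to 167 CPM at TN (log2 difference -0.42, SE 0.15, adjusted p 0.0721), called without KO RT replicate 9 (-0.51, adjusted p 0.0376). The responses of the genotypes differed by 0.04 (95% interval -0.38 to 0.46).

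In eWAT, Gys1 differed by genotype. At RT it had 86.9, 88.1, 103 and 105 CPM in WT and 125, 134, 153 and 155 CPM in KO, all 4 KO libraries lying above all 4 WT libraries. It rose in KO (log2 difference 0.56, SE 0.12, adjusted p 0.0138), 1.48-fold, and held in 11 of 11 alternatives. Gys1 was the only one of the 8 genes tested that was called there, against 4.34% of 18933 genes and 1.20% called higher. At TN it had 73.2, 80.4, 86.9 and 90.4 CPM in WT and 103, 103, 109 and 145 CPM in KO, again without overlap (log2 difference 0.48, SE 0.12, adjusted p 0.077, not called). The effects at TN and RT differed by -0.09 (SE 0.17, adjusted p 0.931), and edgeR called 0 of 18933 genes for this interaction (1439 at an unadjusted p under 0.05). Without eWAT WT RT replicate 18, the library with epididymis transcripts, the RT change was 0.55 (adjusted p 0.0471). The macrophage marker sum in eWAT at RT was 439 to 651 CPM in KO and 596 to 858 CPM in WT, and over all 16 libraries Gys1 and that sum had a Spearman rho of -0.88. Its part in the Gys1 result was not tested. In liver Gys1 had 1.46, 2.30, 2.32 and 3.02 CPM in WT at TN and 3.19, 3.88, 4.00 and 4.39 CPM in KO, without overlap (log2 difference 0.76, SE 0.31, adjusted p 0.197).

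Pygl, which breaks glycogen down, ran from 386 to 707 CPM in liver and from 687 to 1458 CPM in BAT at RT. In WT BAT it had 954, 1150, 1151 and 1458 CPM at RT and 109, 114, 189 and 310 CPM at TN. In KO BAT it had 687, 740, 950 and 991 CPM at RT and 151, 190, 191 and 425 CPM at TN, replicate 3 being the high one. It fell at TN in WT (log2 difference -2.71, SE 0.36, adjusted p 5.4e-05), 6.52-fold, and in KO (-1.81, SE 0.35, adjusted p 0.00214), 3.52-fold. The genotypes did not differ by a called amount in this response (difference 0.89, 95% interval -0.04 to 1.82, adjusted p 0.524). In WT the housing effect in BAT minus that in liver was -2.66 (SE 0.32, adjusted p 2.35e-07), and minus that in eWAT -2.09 (SE 0.32, adjusted p 2.42e-05).

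With Pygl, Gys2, Ppp1r3b and Gys1, housing in WT BAT called 4 of the 9 genes, all lower at TN. The background was 32.5% of 18032 genes called, 16.7% lower at TN. In KO BAT, Gys2 and Pygl were called, 2 of 9, against 15.2% of genes and 8.52% lower at TN. The genotype comparisons in BAT called none of the 9 at RT (0.0887% of genes) or at TN, where 0 of 18032 genes were called by edgeR (945 at an unadjusted p under 0.05). For the housing effect in WT, 3 of 9 genes differed between BAT and liver (14.4% of genes) and the same number between BAT and eWAT (13.9%).

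Several marker sums moved with housing in BAT. That of 6 brown adipocyte markers was 8314 to 13826 CPM in WT at RT and 3958 to 7595 CPM at TN, and 8221 to 12495 and 3570 to 6206 CPM in KO. The sum of 5 macrophage markers was 35.4 to 93.3 CPM in WT at RT and 166 to 396 CPM at TN, and 41.4 to 49.6 and 144 to 205 CPM in KO. The 6 general adipocyte markers summed to 10502 to 13333 CPM in WT at RT and 8546 to 12046 CPM at TN, overlapping. Sums of 8 skeletal muscle markers were uneven, at 1.34 to 491 CPM in WT at RT and 8.92 to 5411 CPM at TN. In KO these muscle sums were 2.24 to 3720 CPM at RT and 1.57 to 7357 CPM at TN, and the housings overlapped in both genotypes. Across the 16 BAT libraries, Spearman's rho with the brown adipocyte sum was 0.75 for Gys1, 0.92 for Pygl, 0.88 for Gys2 and 0.83 for Ppp1r3b, a description over libraries that share the housing difference. The part of these sums in the falls was not tested. Between genes, Gys2 and Pygl had a Pearson r of 0.96 and Ppp1r3b and Pygl one of 0.93 over the same 16 libraries.

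**Figure D4:**
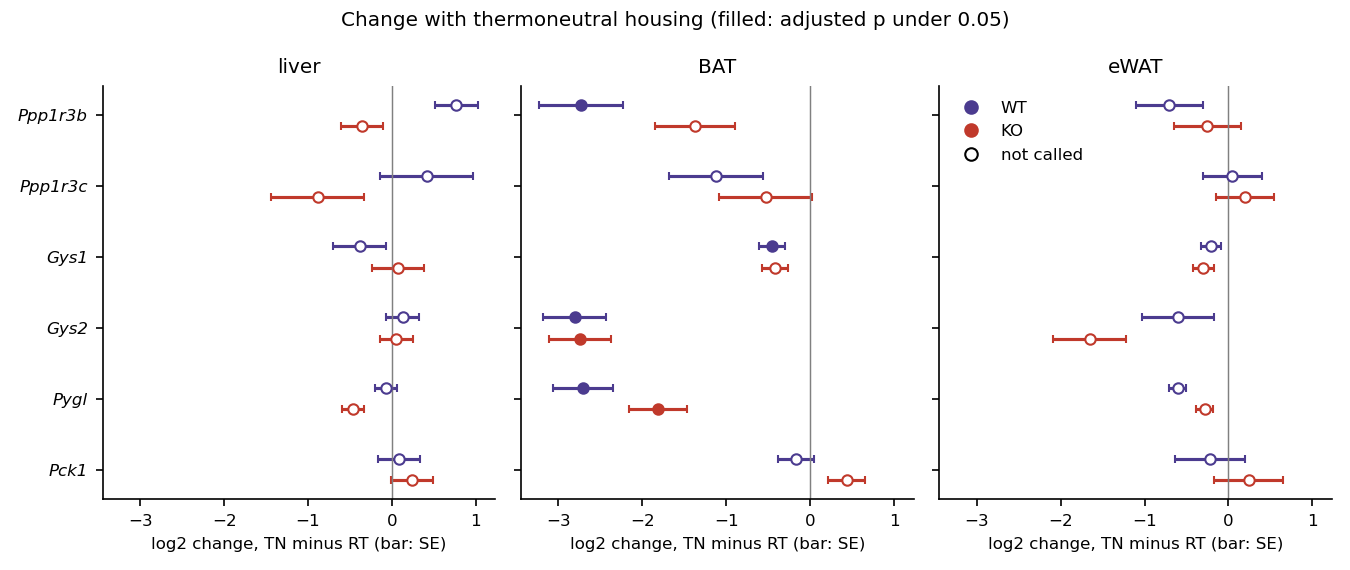
Log2 change from RT to TN for 6 genes in each tissue, with WT and KO as separate points; bars are ± 1 SE and filled points have an adjusted p under 0.05. In BAT Ppp1r3b (WT -2.73), Gys2 (-2.81 and -2.74) and Pygl (-2.71 and -1.81) lie far below 0, while in liver and eWAT no point is filled.

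In eWAT, Pygl had 113, 114, 125 and 129 CPM in WT at TN and 153, 156, 164 and 200.3 CPM in KO at TN, without overlap. It rose in KO (log2 difference 0.49, SE 0.10, adjusted p 0.0407), the only one of 8 genes tested, against 0.586% of all genes called and 0.174% called higher. The call was lost without KO TN replicate 21, 3 or 5 or WT TN replicate 23, 6 or 7, with log2 changes from 0.40 to 0.53 and adjusted p from 0.0528 to 0.171. At RT the difference was 0.16 (SE 0.10, adjusted p 0.462), and the 2 were not shown to differ (interaction 0.33, adjusted p 0.64). With housing, Pygl in WT eWAT went from 165, 176, 179.7 and 209.8 CPM at RT to the TN values above without overlap (log2 difference -0.61, SE 0.10, adjusted p 0.0801), which was called without WT TN replicate 8 (-0.64, adjusted p 0.044). In KO eWAT the change was -0.28 (SE 0.10, adjusted p 0.154), called without KO TN replicate 5 (-0.38, adjusted p 0.0464). The macrophage sum at TN was 949 to 1616 CPM in WT and 712 to 854 CPM in KO, without overlap, and its rho with Pygl over 16 eWAT libraries was -0.89; its part was not tested.

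Housing called none of the 8 genes tested in eWAT, in WT, where 0 of 18933 genes were called by edgeR (1324 at an unadjusted p under 0.05), or in KO (1.74% of genes). In liver, Pygl had 496, 512, 543 and 707 CPM in WT at TN and 386, 436, 464 and 466 CPM in KO at TN, without overlap (log2 difference -0.37, SE 0.13, adjusted p 0.131). From RT to TN in KO liver it changed by -0.46 (SE 0.13, adjusted p 0.138), also without overlap.

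Pck1 was abundant throughout and was called in no within-tissue comparison. Its liver libraries ran from 1004 to 2792 CPM, its BAT libraries from 1761 to 4085 CPM and its eWAT libraries from 813 to 3156 CPM. All groups compared overlapped. The log2 changes in liver were 0.00 (KO minus WT at RT), 0.16 (at TN), 0.09 (TN minus RT in WT) and 0.24 (in KO), each with an SE of 0.25. In BAT the changes with housing were -0.17 in WT and 0.43 in KO (SE 0.22 each, adjusted p 0.583 and 0.205). Neither was called. The 95% interval of the WT change was -0.59 to 0.26. In eWAT the largest difference was 0.70 for KO minus WT at TN (SE 0.42, adjusted p 0.498).

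Fbp1 and Slc2a2 were abundant in liver. Fbp1 had 834, 860, 1022 and 1082 CPM in WT at TN and 537, 716, 811 and 852 CPM in KO at TN, where 1 KO library reached the WT range (log2 difference -0.38, SE 0.14, adjusted p 0.14). At RT the change was 0.04 (SE 0.14). Slc2a2 had 374, 403, 448 and 462 CPM in WT at TN and 270, 298, 339 and 357 CPM in KO, without overlap (log2 difference -0.42, SE 0.13, adjusted p 0.0794). DESeq2 gave -0.41 with an adjusted p of 0.032 for Slc2a2. At RT its change was -0.31 (SE 0.13, adjusted p 0.393).

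In fat, both genes were low and uneven. Fbp1 ran from 0 to 21.4 CPM in BAT and from 0.127 to 43.0 CPM in eWAT, and Slc2a2 from 0 to 8.10 CPM and from 1.46 to 27.1 CPM. The highest BAT value of each belonged to KO TN replicate 2 and the highest eWAT value to KO RT replicate 16, which had the highest hepatocyte marker sums of their tissues. Over the 16 BAT libraries, rho with the hepatocyte sum was 0.94 for Fbp1 and 0.95 for Slc2a2, and over the 16 eWAT libraries 0.93 and 0.65. None of the 8 hepatocyte markers was at 0 in any group of fat libraries. The part of hepatocyte RNA in these levels was not tested, and no change within either fat is given for these genes.

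**Figure D5:**
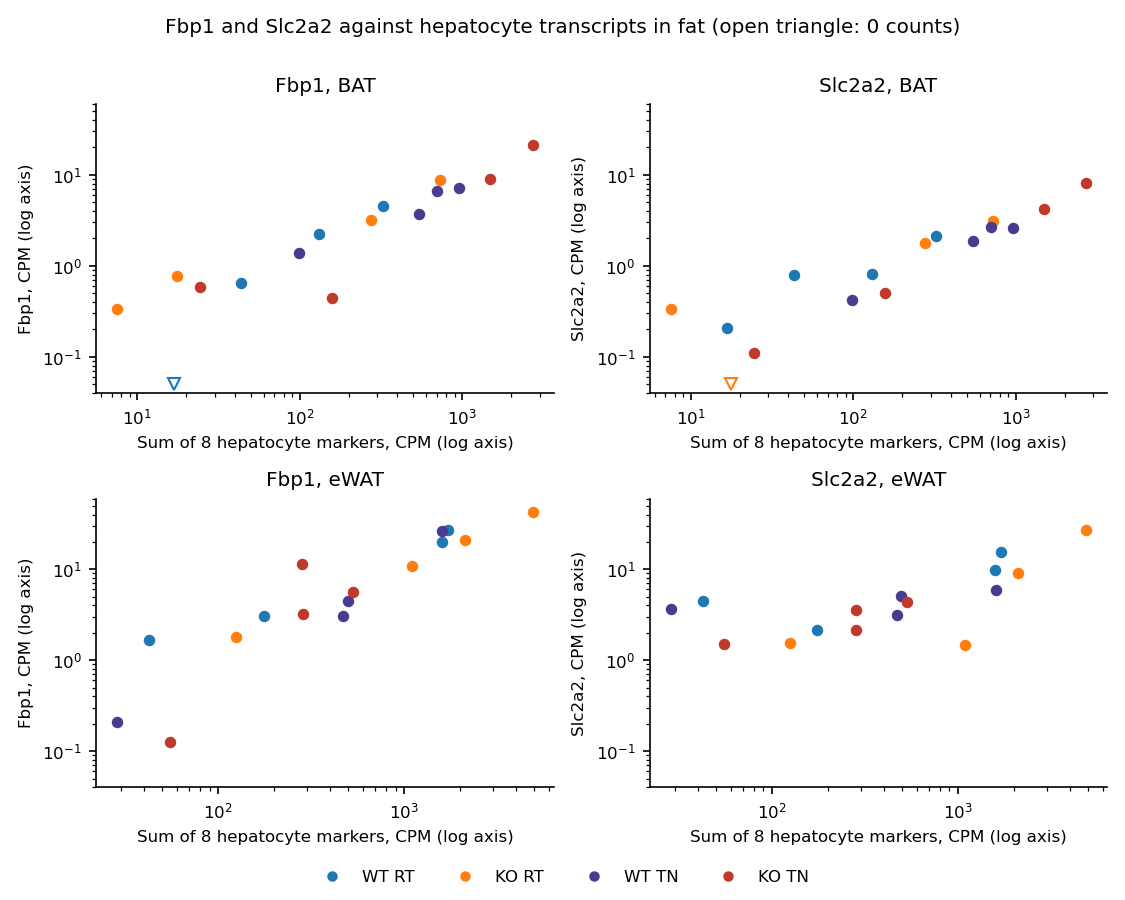
Fbp1 and Slc2a2 in CPM against the summed CPM of 8 hepatocyte markers in the 16 BAT and 16 eWAT libraries, on log axes; open triangles mark libraries with 0 counts. Libraries with more hepatocyte transcripts tended to have more Fbp1 and Slc2a2, up to 21.4 CPM of Fbp1 in BAT and 43.0 CPM in eWAT.

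Other genes of the pathway were counted in 4 lists: 26 genes of the glycogen machinery, 13 of glucose output, 23 of glucose uptake and glycolysis, and 19 of hormonal and transcriptional control. In WT BAT at TN, 10 of 26 glycogen genes fell and 1 rose (list median -0.25 on the log2 scale, against 0.11 for all genes tested). Of all genes tested there, 32.5% were called, 16.7% lower at TN. Ugp2, which makes the UDP-glucose that synthase uses, fell from 349 ± 64.8 to 134 ± 36.9 CPM (log2 difference -1.38, SE 0.22, adjusted p 0.000144). Pgm1, which interconverts glucose phosphates, fell by 1.26 on the log2 scale and the branching enzyme Gbe1 fell by 1.44. Pygb, another glycogen phosphorylase, rose from 103 ± 10.3 to 201 ± 16.8 CPM (0.96, SE 0.17, adjusted p 0.000381), while Pygl fell.

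In KO BAT, 5 of the 26 fell and 1 rose (median -0.29, against 0.04), where 15.2% of all genes were called, 8.52% lower at TN. Pygb rose by 1.37 (adjusted p 4.03e-05), Ugp2 fell by 1.07, Gbe1 fell by 0.94, and Phkb, a subunit of the kinase that activates phosphorylase, fell by 0.90. Of the 23 genes of glucose uptake and glycolysis, 9 fell and 1 rose in WT BAT (median -0.49). In KO, 7 fell and none rose, and the list median was 0.03, opposite in sign to the calls. The background was 32.5% of all genes called in WT (16.7% lower) and 15.2% in KO (8.52% lower). The glycolytic enzymes Aldoa (log2 difference -1.86 in WT and -1.53 in KO), Pfkp (-1.60 and -1.48), Pkm (-1.80 and -1.26) and Gpi1 (-1.21 and -1.08) fell in both genotypes. Of the 13 glucose output genes, 4 fell and 1 rose in WT, and 1 fell and 1 rose in KO (medians -0.24 and 0.34, against 0.11 and 0.04 over all genes tested). Taken in both directions, these counts were near the background of 32.5% of all genes called in WT and 15.2% in KO. Pck2, the mitochondrial counterpart of Pck1, rose from 8.74 ± 1.55 to 32.2 ± 5.67 CPM in WT (log2 difference 1.88, SE 0.18, adjusted p 2.7e-06) and by 1.44 in KO, and Fbp2, the muscle counterpart of Fbp1, fell by 2.41 in WT and by 1.76 in KO.

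Among the 18 control genes tested in BAT, 3 rose and 5 fell in WT at TN, and 1 rose and 1 fell in KO. Their median was 0.12 in WT, against 0.11 over all genes tested, and 0.07 in KO, against 0.04, and of all genes 32.5% were called in WT and 15.2% in KO. The insulin receptor substrate Irs2 rose in WT from 7.54 ± 1.59 to 28.8 ± 7.79 CPM (log2 difference 1.93, SE 0.40, adjusted p 0.002). Creb1, the factor that binds cAMP response elements, rose by 0.45, and Akt2, a kinase of insulin signalling, fell by 0.55. In KO, Mlxipl, the carbohydrate response factor, fell by 1.06 and Cebpa, a factor of adipocyte and liver differentiation, rose by 0.60.

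In liver at TN the lists held few calls by genotype. The background was 3.18% of all genes called, 1.85% lower in KO. Of 12 glucose output genes tested, 3 fell in KO and none rose (median -0.21, against 0.05). Pcx, pyruvate carboxylase, which feeds gluconeogenesis, fell from 810 ± 31.5 to 457 ± 30.4 CPM (log2 difference -0.83, SE 0.11, adjusted p 0.00113). The alanine transaminase Gpt2 fell by 0.52 (adjusted p 0.0459). Of 24 glycogen genes, Pgm1 fell by 0.53 (adjusted p 0.0139) and Gsk3b, a kinase that inactivates glycogen synthase, fell by 0.58 (adjusted p 0.019). Gpi1 (log2 difference -0.53, SE 0.15, adjusted p 0.0476) was the only call among 23 glycolysis genes. Pparg (-1.24, SE 0.32, adjusted p 0.0476), a lipogenic nuclear receptor, was the only one among 19 control genes. The adjusted p of Gpt2, Gpi1 and Pparg lay close to the threshold.

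In eWAT at RT, 3 of 25 glycogen genes tested rose in KO and 1 fell (median 0.08, against 0.00). Of all genes, 4.34% were called in this comparison, 1.20% higher in KO. Pgm1 rose by 0.50, Gbe1 by 0.51 and Pygb by 0.59 on the log2 scale, and Gaa, the lysosomal glucosidase, fell by 0.54. Gpt2 rose by 0.60 among 13 glucose output genes, and the insulin-responsive transporter Slc2a4 rose by 0.55 among 23 uptake and glycolysis genes. Irs1, an insulin receptor substrate, rose from 36.8 ± 3.70 to 68.9 ± 8.22 CPM (log2 difference 0.90, SE 0.13, adjusted p 0.00223), and the glucocorticoid receptor Nr3c1 (0.56) and the coactivator Ppargc1a (1.30) rose as well, 3 of 19 control genes. At TN, the transporter Slc2a3 rose in KO by 1.35 (adjusted p 0.0401), 1 of 23 uptake and glycolysis genes. Of 19 control genes, the insulin receptor Insr rose by 0.49 (adjusted p 0.0435) and Nr3c1 by 0.42 (adjusted p 0.0465). Cebpb fell by 0.67 (adjusted p 0.0422). The background by genotype at TN was 0.586% of all genes called, 0.174% higher in KO. Over all genes, edgeR called only 5 without KO TN replicate 21 and 2 without KO TN replicate 3. From RT to TN in KO eWAT, 2 of 25 glycogen genes fell, Pgm1 by 0.52 (adjusted p 0.0242) and Gbe1 by 0.58 (adjusted p 0.0268). Cebpb fell by 0.63 (adjusted p 0.0337), the only call among 19 control genes. The background was 1.74% of all genes called. Without KO TN replicate 3, edgeR called 0 of 19644 genes for this housing change. In the other within-tissue comparisons edgeR called no gene of the 4 lists.

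The genes whose levels followed Ppp1r3b most closely over the 16 liver libraries, of 11840 ranked, were Nolc1 (Pearson r 0.91, Spearman rho 0.90), Tsr1 (0.91 and 0.90) and Fam222b (0.90 and 0.84). Those closest to Pck1 over the 16 eWAT libraries, of 12973 ranked, were Tm9sf2 (0.88 and 0.86), Ganc (0.88 and 0.84) and Nub1 (0.86 and 0.89). These values describe libraries that share tissue and group differences.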

How the data were processed

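Bulk RNA sequencing of 48 libraries (3 tissues, 2 genotypes, 2 housings, 4 libraries a group) was used as the raw counts per Ensembl gene deposited by the authors, whole numbers with no normalization. Per the submitters' processing notes, fastp, STAR 2.6.1d, featureCounts 1.5.0-p3 and GRCm38/mm10 were used, with no role or order given. Per the labels' protocols, libraries were made with a NEBNext Ultra kit and sequenced as paired ends on an Illumina instrument. The annotation release and strand setting are not given in the sources used here. Symbols came from the reference gene table, and exon lengths and coordinates from GENCODE on GRCm38. No row lacked a gene identifier.

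Library totals were 23711728 to 36503849 counts in liver, 25304872 to 39383039 in BAT and 28656921 to 43687848 in eWAT. Molecular identifiers are not given in the sources used here, so the limit of 3 counts for a count of 0 covers counting error only. The 16 libraries of a tissue were fitted together with edgeR 4.0.16 under R 4.3.3, using a mean for each group, TMM scaling, robust quasi-likelihood F tests and edgeR's filter on low counts (filterByExpr, min.count 10), giving 5 comparisons per tissue. A fit over all 48 libraries gave 3 comparisons of tissues and 6 differences of effects. P-values are two-sided and carry a Benjamini-Hochberg adjustment across every gene of the fit, with a threshold of 0.05. Replicates are biological per the labels, but nothing says whether libraries of different tissues share animals, so p-values measure the spread between these libraries. Intervals are 95%. The procedure was tested on simulated data. By a chi-square test of counts, no pair of libraries in a group agreed within sampling noise.

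The 9 genes, the 4 pathway lists and the marker lists were chosen with earlier results of these data known. All 9 genes were named, up to 4 called genes per list and comparison with the smallest adjusted p, Agt as the check of the labels, and the 3 genes most like Ppp1r3b in liver and Pck1 in eWAT by Pearson r of log2(CPM + 0.5), with a mean of at least 1 CPM. Marker genes and Ucp1 were named as marker values. No log2 change within fat is given for Ppp1r3g, which was near 0 there, or for Fbp1 and Slc2a2, which were low and uneven. Alternatives were DESeq2 1.42.0, RLE scaling, no low-count filter, leaving out each library in turn and, across tissues, the replicate number as a block. Marker sums use plain library totals. One called gene of the pathway lists is not reported here by name.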

Additional observations from a re-analysis of the deposited data

Results flagged for a closer look

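Of 108 sets of 4 libraries (9 genes in 12 groups), 14 held a library far from the other 3 by Dixon's criterion, which flags about 1 group in 20 by chance. In liver these were Ppp1r3c in WT TN replicate 7 (86.1 CPM, the others 34.9 to 43.4) and Ppp1r3g in WT RT replicate 18 (22.9 CPM, the others 2.54 to 4.54). In BAT, KO TN replicate 3 stood high for Ppp1r3b (344 CPM, the others 60.5 to 86.6) and Pygl (425 CPM, the others 151 to 191), and WT TN replicate 24 stood high for Ppp1r3c (127 CPM, the others 26.1 to 40.8) and Gys2 (25.8 CPM, the others 10.0 to 12.5). Pck1 was high in BAT KO RT replicate 14 (2946 CPM, the others 1961 to 2066) and in BAT WT RT replicate 15 (3195 CPM, the others 2464 to 2492). In eWAT, Ppp1r3c was low in WT TN replicate 23 (15.8 CPM, the others 37.2 to 40.3), Gys1 was high in KO TN replicate 5 (145 CPM, the others 103 to 109) and Fbp1 was high in WT TN replicate 8 (26.1 CPM, the others 0.209 to 4.44). Ppp1r3g had counts in only 1 eWAT library of WT RT (replicate 18, 0.822 CPM), KO TN (replicate 4, 0.101 CPM) and WT TN (replicate 8, 0.560 CPM).

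The housing effect in WT differed between tissues for 3 genes by edgeR. BAT minus liver was -2.66 for Pygl, -2.95 for Gys2 and -3.52 for Ppp1r3b on the log2 scale. BAT minus eWAT was -2.09 for Pygl, -2.20 for Gys2 and -2.02 for Ppp1r3b.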

How the results depend on the processing

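Of the changes of single genes, 129 of 130 under RLE scaling, 128 of 130 with no filter on low counts and 119 of 130 under DESeq2 kept their direction and side of the threshold. Leaving out 1 library at a time kept 1747 changes, with 58 changes of sign, 22 calls lost and 13 gained. Pck1 in liver at RT, KO minus WT, turned from 0.0046 to -0.0045 under RLE scaling and under DESeq2. With DESeq2 the number of the 9 genes called was 2 for genotype in liver at TN (1 by edgeR), 1 for housing in KO liver (0), 4 for housing in KO BAT (2), 2 for genotype in eWAT at TN (1), 1 for housing in WT eWAT (0) and 2 in KO eWAT (0). It was 1 for the genotype effect at TN in liver minus BAT and 1 in liver minus eWAT (0 each by edgeR). Leaving out 1 library gave 0 to 1 called genes for genotype in eWAT at TN, 0 to 1 for housing in WT eWAT, 0 to 2 in KO eWAT and 0 to 1 for the genotype effect at TN in liver minus BAT. The cause was not tested. DESeq2 also moved 16 of 60 pathway list counts.

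Log2 differences that changed sign without 1 library are given as lowest and highest, and none of them was called. For liver, KO minus WT at RT, these were Pygl -0.024 to 0.10, Pck1 -0.19 to 0.20 and Ppp1r3g -0.48 to 1.06. For housing in WT liver they were Pck1 -0.16 to 0.23, Slc2a2 -0.014 to 0.10 and Ppp1r3g -0.94 to 1.45, and in KO liver Gys1 -0.053 to 0.19, Slc2a2 -0.12 to 0.046 and Gys2 -0.10 to 0.24. For BAT they were Ppp1r3c -0.51 to 0.052 by genotype at RT. By genotype in BAT at TN they were Pygl -0.028 to 0.80, Gys2 -0.41 to 0.27, Ppp1r3b -0.11 to 1.04 and Ppp1r3c -0.26 to 1.13, and for the BAT interaction Gys1 -0.048 to 0.13 and Gys2 -0.20 to 0.47. By genotype in eWAT at RT they were Pck1 -0.087 to 0.69, Gys2 -0.071 to 0.50, Ppp1r3b -0.61 to 0.14 and Ppp1r3c -0.29 to 0.18, and at TN Ppp1r3b -0.011 to 0.57 and Ppp1r3c -0.13 to 0.24. For housing they were Pck1 -0.41 to 0.21 and Ppp1r3c -0.058 to 0.28 in WT eWAT, Pck1 -0.099 to 0.58 and Ppp1r3b -0.64 to 0.27 in KO eWAT, and Gys1 -0.25 to 0.083 for the WT effect in BAT minus liver.

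Replicate numbers recur across tissues. Over 35 pairs of libraries with the same number, deviations from the group means had a correlation of -0.33 to 0.16 (median 0.02), and 12 of 35 correlated best with their own number, so the numbers were not taken as a pairing; whether they mark shared animals is not given in the sources used here. With the replicate number as a block, Ppp1r3c in liver minus BAT was -0.54 (adjusted p 0.0956) and Slc2a2 in BAT minus eWAT -1.26 (adjusted p 0.0973), both no longer called, and Pck1 in liver minus BAT was -0.31 (adjusted p 0.0445), called. All 9 counts of called genes stayed within 1.5 times. Within a tissue the groups share no replicate numbers, so no block could be fitted there. Low counts limit Ppp1r3g in both fats and Fbp1 and Slc2a2 in BAT, where some libraries held few or 0 counts. In eWAT, Fbp1 had 4 to 1538 counts and Slc2a2 had 43 to 971 counts.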
